A study of Mus musculus with 12 samples.

Results

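Of 10 mouse genes that encode enzymes making or converting steroid hormones, 8 were detected in every one of 12 melanoma tumors, whereas Cyp19a1, which encodes aromatase, and Cyp11a1, which encodes the cholesterol side-chain cleavage enzyme, were at or near 0. The genes were chosen by name, with earlier results of these data known: Cyp11a1, Cyp19a1, Hsd17b1, Hsd17b4, Hsd17b10, Hsd17b11, Hsd17b12, Hsd11b1, Srd5a1 and Srd5a3. All 10 have a row among the 23420 genes of the deposited count table. A filter on low counts was passed by these 8, by 13095 genes of the whole table and by 15 of 37 other steroid genes. In a related experiment, not analysed here, the study gave obese males the aromatase inhibitor letrozole, so whether these enzymes are transcribed in the tumor itself is a question the counts can address.

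Bulk RNA was sequenced from B16-F10 tumors, grown from a melanoma cell line of C57BL/6 origin that was implanted under the skin of the right flank of male C57BL/6J mice, with 3 tumors in each of 4 groups. Obese mice had eaten a Western diet with 0.2% added cholesterol and nonobese mice the matching control diet, begun in young animals and kept for 15 weeks. Once tumors could be felt, mice of both diets received 10 mg/kg of either anti–PD-1 antibody (clone 29F.1A12), which blocks an inhibitory receptor of T cells, or an isotype control antibody (clone 2A3), by intraperitoneal injection. Each group is named by its diet and its antibody, for example nonobese isotype. All tumors came from 1 cell line in 1 sex, no tumor was left untreated, and age at collection is not given in the labels.

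Steroid hormones are built from cholesterol, which the StAR protein carries into mitochondria for Cyp11a1 to shorten to pregnenolone. Further enzymes in the adrenal gland and gonads turn pregnenolone into corticosterone, the main glucocorticoid of mice, or into testosterone. Aromatase converts androgens to estrogens, chiefly in the gonads, brain and, in humans, fat, and many tissues that cannot start from cholesterol still convert hormones taken from blood by 17-beta-, 11-beta- or 5-alpha-specific enzymes. Several members of the Hsd17b family are better known for fatty acid or mitochondrial metabolism than for hormones.

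The total of counts per tumor ranged from 14022929 to 33871843, and 13095 genes passed the filter on low counts and were tested. Levels are given as CPM, the count of a gene as a share of the tumor's total, which is adjusted by its TMM factor for library composition, and 3 counts were taken as the floor of detection, which equals 0.0882 to 0.212 CPM depending on the tumor. Poisson intervals and floors on counts cover counting error only, not the spread between tumors, and reads carried no molecular identifiers. Genes of pigment cells (Pmel, Tyr, Tyrp1, Dct and Mlana), the defining markers of this line, summed to 23262 to 29006 CPM in all tumors. Because the tissue is bulk, fewer cells of a type and less RNA per cell cannot be told apart.

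Start sites of Cyp19a1, Cyp11a1, Hsd11b1, Hsd17b12 and Srd5a3 are shown because these genes span the range from at most 6 counts in any tumor to high levels. Each sequence runs 5′ to 3′ on the strand of the gene, from 250 bases before to 50 bases after the start in RefSeq (GRCm38.p6), with every CG dinucleotide in capitals. The Cyp19a1 windows are chr9:54268115-54268414, chr9:54228865-54229164 and chr9:54193694-54193993, all on the minus strand. Those of Cyp11a1 (chr9:57997774-57998073, plus strand), Hsd11b1 (chr1:193242311-193242610, minus), Hsd17b12 (chr2:94157860-94158159, minus) and Srd5a3 (chr5:76140023-76140322, plus) follow.
Cyp19a1, start 1: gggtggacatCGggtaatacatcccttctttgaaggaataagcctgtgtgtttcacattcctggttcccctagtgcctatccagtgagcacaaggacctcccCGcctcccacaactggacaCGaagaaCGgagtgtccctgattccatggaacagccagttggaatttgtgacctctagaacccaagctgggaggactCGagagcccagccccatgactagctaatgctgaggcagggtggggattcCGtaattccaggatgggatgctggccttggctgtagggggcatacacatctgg
Cyp19a1, start 2: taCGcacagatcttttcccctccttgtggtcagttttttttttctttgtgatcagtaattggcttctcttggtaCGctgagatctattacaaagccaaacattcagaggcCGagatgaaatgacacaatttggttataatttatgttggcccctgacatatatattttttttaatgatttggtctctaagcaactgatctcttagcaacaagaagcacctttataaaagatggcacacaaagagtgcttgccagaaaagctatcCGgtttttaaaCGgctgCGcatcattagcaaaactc
Cyp19a1, start 3: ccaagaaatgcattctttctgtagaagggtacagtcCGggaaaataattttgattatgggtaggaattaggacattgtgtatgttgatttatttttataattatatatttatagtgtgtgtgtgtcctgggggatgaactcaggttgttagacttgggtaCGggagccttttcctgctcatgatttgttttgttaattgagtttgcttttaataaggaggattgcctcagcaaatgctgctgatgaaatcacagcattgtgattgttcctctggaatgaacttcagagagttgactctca
Cyp11a1: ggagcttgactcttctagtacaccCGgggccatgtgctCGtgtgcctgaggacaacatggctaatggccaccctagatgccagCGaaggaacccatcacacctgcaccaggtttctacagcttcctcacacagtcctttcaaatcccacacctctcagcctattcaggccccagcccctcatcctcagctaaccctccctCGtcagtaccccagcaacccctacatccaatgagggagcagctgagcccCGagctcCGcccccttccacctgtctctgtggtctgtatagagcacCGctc
Hsd11b1: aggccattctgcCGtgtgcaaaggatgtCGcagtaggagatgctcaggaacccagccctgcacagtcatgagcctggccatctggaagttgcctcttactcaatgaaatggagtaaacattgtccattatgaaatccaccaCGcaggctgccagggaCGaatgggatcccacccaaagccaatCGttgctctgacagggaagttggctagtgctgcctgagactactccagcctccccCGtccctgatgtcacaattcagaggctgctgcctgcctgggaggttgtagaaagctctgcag
Hsd17b12: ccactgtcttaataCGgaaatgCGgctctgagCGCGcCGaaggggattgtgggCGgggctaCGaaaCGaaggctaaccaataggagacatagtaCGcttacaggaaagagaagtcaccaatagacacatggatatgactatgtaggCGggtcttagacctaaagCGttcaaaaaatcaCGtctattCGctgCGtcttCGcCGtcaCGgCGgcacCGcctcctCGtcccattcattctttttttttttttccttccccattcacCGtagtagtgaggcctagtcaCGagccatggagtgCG
Srd5a3: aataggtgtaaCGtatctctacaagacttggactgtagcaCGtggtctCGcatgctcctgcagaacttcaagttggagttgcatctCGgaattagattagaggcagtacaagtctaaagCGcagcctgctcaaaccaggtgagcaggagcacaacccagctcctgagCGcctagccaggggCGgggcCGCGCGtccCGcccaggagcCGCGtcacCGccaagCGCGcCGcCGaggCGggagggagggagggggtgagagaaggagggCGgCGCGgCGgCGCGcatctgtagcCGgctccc

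The 3 windows of Cyp19a1 held 6, 6 and 2 CG dinucleotides and that of Cyp11a1 held 7, while another Cyp11a1 window, at chr9:58014702-58015001, held 1. The window of Hsd11b1, the detected member with the lowest level, held 6. Among the more abundant members, Hsd17b10 had 15, Hsd17b11 18, Hsd17b12 23, Srd5a1 24 and Srd5a3 26. Over all 32851 promoters of this length the median was 7, with quartiles of 3 and 20. Counted per gene, by its window with the most CG dinucleotides, the median was 22 for the 9753 matched genes that passed the filter (quartiles 14 and 30). It was 2 (quartiles 1 and 5) for 3832 genes without a count in any tumor. The 5 more abundant members lay within the quartiles of the genes that passed, whereas Hsd11b1, which also passed, lay below them.

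Both strands of each window were searched for 4 short motifs. The letters TATAAA, the core of a TATA box, occurred at starts 2 and 3 of Cyp19a1 and in no other window of a member, against 13.6% of all promoters. The letters GGGCGG, a GC box, occurred in the Cyp11a1 window shown and in those of Hsd17b10, Hsd17b11, Hsd17b12, Srd5a1 and Srd5a3, against 35.7% of all promoters. Neither AAGGTCA, a core bound by the steroidogenic factor NR5A1 and its relatives (4.72% of all promoters), nor GGTCA followed after 3 bases by TGACC, the core of an estrogen response element (0.0700%), occurred in any of the 11 windows of the 8 members with an entry.

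Aromatase, which makes estrogens from androgens, was below detection in tumors of all 4 groups. Cyp19a1 (chromosome 9, 54165937 to 54268164, protein coding) had 1 count in obese isotype replicate 2 and 0 in the other 11 tumors. In the pool of all 272866566 counts this equals 0.00366 CPM without TMM scaling, with an exact 95% Poisson interval of 9.28e-05 to 0.0204. No tumor reached the floor of 3 counts, so no difference between diets or treatments was detectable at this depth, and Cyp19a1 was not tested.

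Adipose tissue, a known site of aromatase in humans, left few reads in the tumors. Adipoq, which encodes the fat cell hormone adiponectin, had 27, 96 and 27 counts in nonobese isotype tumors and 3, 10 and 12 in nonobese anti–PD-1 tumors. Its counts were 9, 6 and 16 in obese isotype tumors and 45, 42 and 164 in obese anti–PD-1 tumors. The sum of 6 adipocyte markers reached its highest value, 35.8 CPM, in obese anti–PD-1 replicate 3, where Cyp19a1 was at 0. With so few reads from fat, this value cannot show whether fat cells in the tumor held Cyp19a1 RNA. None of the 6 markers was at 0 in every tumor, and their sum ranged from 5.43 to 20.6, 0.712 to 5.13, 1.09 to 3.64 and 8.95 to 35.8 CPM in nonobese isotype, nonobese anti–PD-1, then obese isotype and last obese anti–PD-1 tumors.

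Cyp11a1 (chromosome 9, 57998024 to 58027031, protein coding), the first enzyme of steroid synthesis, had 13 counts in all tumors together. Its counts were 2, 1 and 0 in nonobese isotype, 1, 0 and 2 in nonobese anti–PD-1, 0, 6 and 0 in obese isotype tumors and 0, 1 and 0 in those given anti–PD-1. Only obese isotype replicate 2 reached the floor, with 6 counts or 0.420 CPM, and it was also the tumor that held the single count of Cyp19a1. Pooled over the tumors the level was 0.0476 CPM on the same scale (exact 95% Poisson interval 0.0254 to 0.0815). This interval treats the tumors as 1 library and leaves out the spread between them, although 6 of the 13 counts came from 1 tumor. An uncharacterized long noncoding gene, Gm17322, shares 145 exonic bases with Cyp11a1 on the same strand, so its few reads are of uncertain origin.

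**Figure D1:**
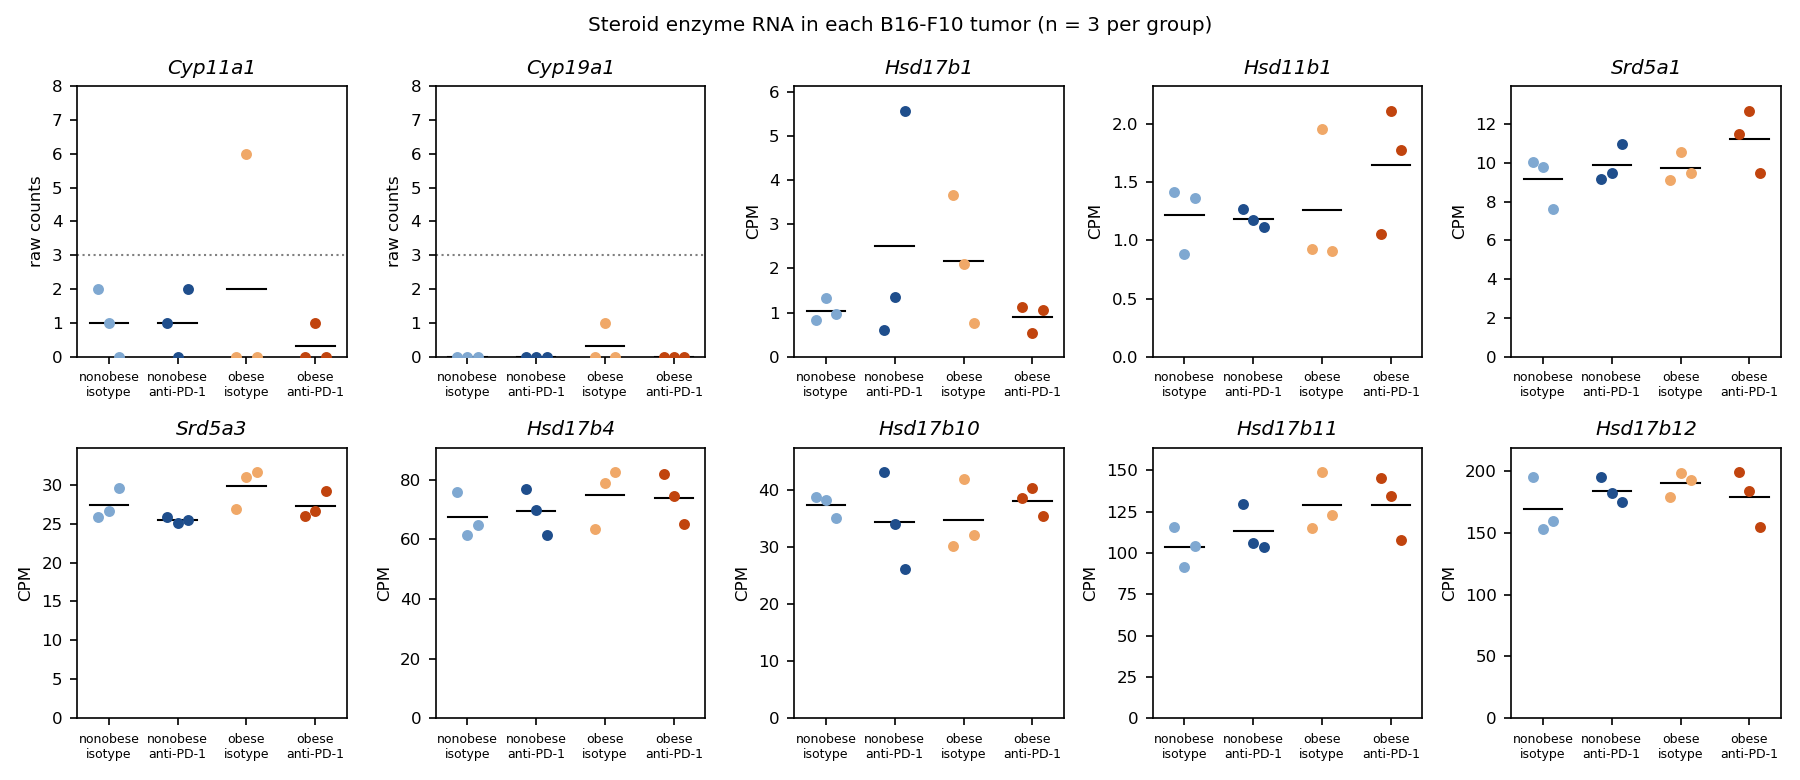
Each dot is 1 tumor and each bar the mean of 3, by group; the y axis gives raw counts for Cyp11a1 and Cyp19a1, with a dotted line at the floor of 3 counts, and CPM for the other genes. Cyp19a1 stayed under the floor in all tumors, and Hsd17b1 reached 5.57 CPM in 1 nonobese anti–PD-1 tumor. The 6 genes from Srd5a1 to Hsd17b12 varied by at most 1.67-fold over the tumors.

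Per length of annotated exon, the detected members spanned from 0.313 to 75.1 CPM per kilobase. Hsd17b12 had the highest level per length, 75.1 ± 7.04 CPM per kilobase (SD, n = 12), above 95.2% of the genes tested. Hsd17b11 followed at 36.4 ± 5.48, Hsd17b10 at 27.9 ± 3.83 and Hsd17b4 at 21.0 ± 2.33 CPM per kilobase. The ranges over tumors of Hsd17b11 and Hsd17b10 overlapped, and their order was not the same in all tumors. Those of Hsd17b10 and Hsd17b4 also overlapped, but within each tumor Hsd17b10 had the higher level per length. Hsd17b12 lay above the others in every tumor.

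The relatives Srd5a3 and Srd5a1 had levels nearer the middle of all genes. Srd5a3 was at 5.91 ± 0.483 CPM per kilobase (SD, n = 12), above 51.1% of the genes tested, and Srd5a1 at 3.43 ± 0.449, above 38.7%. Hsd17b1 was at 1.24 ± 1.12 CPM per kilobase, and its range overlapped those of Srd5a1 above and Hsd11b1 below. Hsd11b1 was at 0.313 ± 0.0981 CPM per kilobase, which exceeds only 9.66% of the genes tested, and Cyp11a1 and Cyp19a1 were at 0.0122 and 0.00129.

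**Figure D2:**
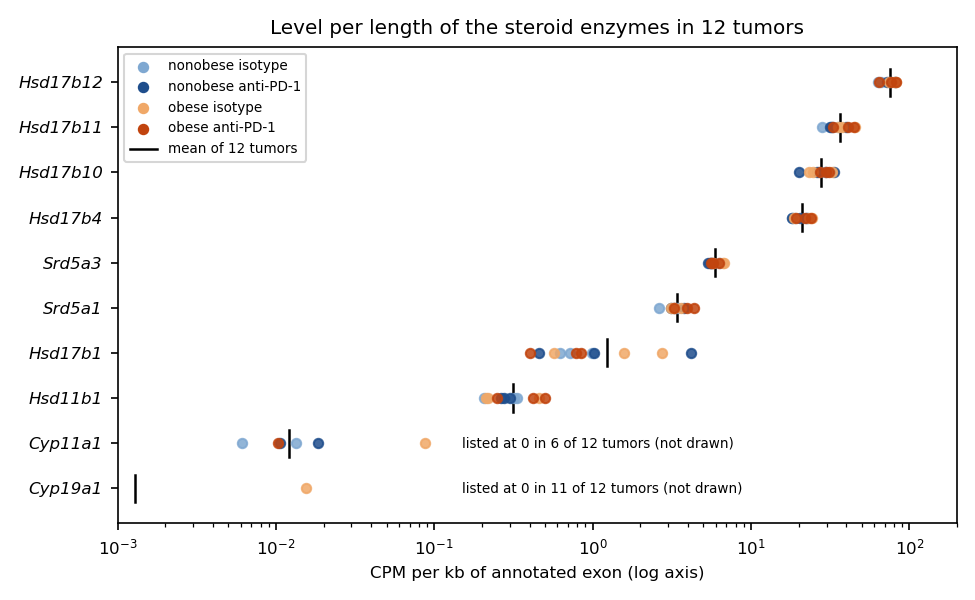
Level of each gene in CPM per kilobase of annotated exon on a log axis, with 1 dot per tumor colored by group and a bar at the mean of 12 tumors; tumors listed at 0 are not drawn. Hsd17b12, at a mean of 75.1, stood above all other members, and Hsd11b1 was the lowest that was detected in every tumor.

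Among the 8 members tested, the study's thresholds, more than a 2-fold change and P under 0.05 before adjustment, were passed in 1 comparison by 1 gene, Hsd17b1, in the difference between the responses to anti–PD-1 in obese and nonobese mice. All tests were edgeR quasi-likelihood F-tests on the 12 tumors with 4 group means, with Benjamini-Hochberg FDR over the 13095 genes, and P values measure the spread between the tumors of a group. For anti–PD-1 against isotype, 0 of 8 members passed in nonobese mice (2.42% of all genes tested passed) and 0 of 8 in obese mice (2.44%), also by DESeq2. For obese against nonobese, 0 of 8 passed under isotype (1.37% of all genes), 0 of 8 under anti–PD-1 (4.25%), where DESeq2 gave 1, Hsd17b1, and 0 of 8 for the average of both treatments (0.512%). In the difference of the responses, 1 of 8 passed, where 5.76% of all genes did. The comparisons share groups of tumors and are not independent of each other.

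At an unadjusted P below 0.05 alone, whatever the fold change, Hsd17b11 was added in obese against nonobese mice under isotype (13.3% of all genes tested) and in the average over treatments (10.4%), and no member in the others (5.23% and 7.57% for anti–PD-1 in nonobese and obese mice, 10.3% for obesity under anti–PD-1, and 12.9% in the difference, with Hsd17b1). No member had an FDR below 0.05 in any comparison. The median log2 fold change of the 8 members was 0.07 for anti–PD-1 in nonobese and -0.01 in obese mice, against 0.02 and -0.01 over all genes. For obesity it was 0.14 under isotype and 0.12 under anti–PD-1, against 0.01 and -0.01 over all genes.

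**Figure D3:**
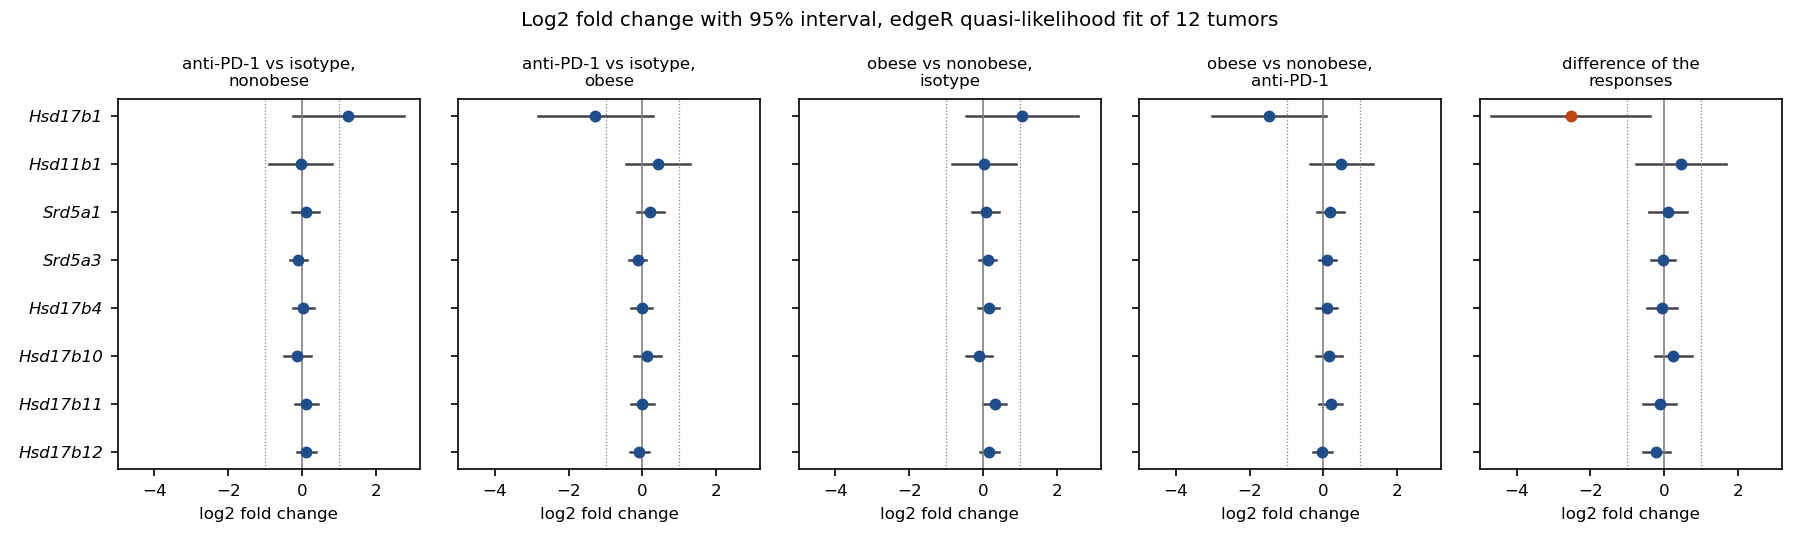
Log2 fold change of the 8 tested members with its 95% interval in 5 comparisons, from the edgeR fit of 12 tumors; dotted lines mark a 2-fold change, and the difference of the responses is that in obese minus that in nonobese mice. Intervals of the 6 abundant members lie within a 2-fold change, and the red point, Hsd17b1 at -2.53, is the single value past both thresholds.

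Hsd17b1, which reduces estrone to the stronger estrogen estradiol and is best known from ovary and placenta, was low in most tumors and high in a few. It lies on chromosome 11, from 101077968 to 101081188, and is protein coding. Its counts were 26, 45 and 17 in nonobese isotype tumors, which equal 0.835, 1.32 and 0.966 CPM. Nonobese anti–PD-1 tumors had 12, 44 and 125 counts, or 0.610, 1.36 and 5.57 CPM. Replicates 1 and 2 of this group lay just below and just above the range of the isotype tumors, and replicate 3 far above it.

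In obese mice the isotype tumors had 87, 30 and 16 counts of Hsd17b1, or 3.66, 2.10 and 0.764 CPM. Obese anti–PD-1 tumors had 16, 11 and 23 counts, or 1.13, 0.541 and 1.05 CPM, of which 2 lay within the range of the nonobese isotype tumors and 1 below it. The groups overlapped in each of the 4 pairwise comparisons. Across the 12 tumors the highest value was 10.3-fold the lowest, and the SD of log2 CPM, 0.95, exceeded that of 96.1% of the genes tested, against a median of 0.22.

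The fitted log2 fold change of Hsd17b1 with anti–PD-1 was 1.26 (SE 0.70, FDR 0.929 from edgeR) in nonobese mice and -1.28 (SE 0.73, FDR 0.706 from edgeR) in obese mice. Their difference was -2.53 (SE 1.01, 95% interval -4.70 to -0.37), with an FDR of 0.309 from edgeR. Obese against nonobese gave 1.06 under isotype (SE 0.70, FDR 0.516 from edgeR) and -1.48 under anti–PD-1 (SE 0.72, FDR 0.520 from edgeR). Averaged over treatments the diet difference was -0.21 (FDR 0.910 from edgeR).

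Single tumors decided these values. Without nonobese anti–PD-1 replicate 3, the difference of the responses was -1.19 (FDR 0.650 from edgeR) and no longer passed the thresholds, the response in nonobese mice changed sign to -0.08 and obesity under anti–PD-1 was -0.14. Without obese isotype replicate 1 the difference was -1.89 (FDR 0.456 from edgeR) and without obese anti–PD-1 replicate 2 it was -2.26 (FDR 0.533 from edgeR), neither past the P threshold. Leaving out obese isotype replicate 1 also moved the response in obese mice to -0.62 and obesity under isotype to 0.40. The 3 tumors with the highest Hsd17b1, nonobese anti–PD-1 replicate 3 and obese isotype replicates 1 and 2, also had the 3 highest TMM factors, 1.09, 1.02 and 1.02, and the part of library composition in the result was not tested. The genes whose log2 CPM followed Hsd17b1 most closely over the 12 tumors were Phf1, Prpf40b and Arhgef25, each with a Pearson r of 0.96.

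Hsd11b1, which regenerates active glucocorticoid from its inert keto form inside cells, was detected in every tumor at 0.882 to 2.12 CPM. The gene lies on chromosome 1, from 193221640 to 193264045. It had 44, 30 and 24 counts in nonobese isotype tumors (1.41, 0.882 and 1.36 CPM) and 25, 38 and 25 in nonobese anti–PD-1 tumors (1.27, 1.18 and 1.11 CPM). Obese isotype tumors had 22, 28 and 19 counts (0.925, 1.96 and 0.907 CPM), and obese tumors given anti–PD-1 had 15, 43 and 39 (1.06, 2.12 and 1.78 CPM). The highest value, 2.12 CPM, was in an obese anti–PD-1 tumor and the next, 1.96 CPM, in an obese isotype tumor, and the groups overlapped in all 4 pairwise comparisons.

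Anti–PD-1 in obese mice gave a log2 fold change of 0.42 for Hsd11b1 (SE 0.40, 95% interval -0.45 to 1.29, FDR 0.853 from edgeR), and obesity under anti–PD-1 gave 0.49 (SE 0.40, FDR 0.757 from edgeR). Intervals of this width include a 2-fold increase. H6pd, which supplies the cofactor that sets the direction of this enzyme, was at 12.4 ± 1.82 CPM per kilobase (SD, n = 12), far above the 0.313 of Hsd11b1 itself. Hsd11b2, which inactivates the same hormone, had 4 counts in all tumors together. On the opposite strand, the body of Hsd11b1 overlaps Lamb3 without shared exonic bases.

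Srd5a1, which turns testosterone into the stronger androgen dihydrotestosterone, was at 7.61 to 12.7 CPM over the tumors. It lies on chromosome 13, from 69573449 to 69611485, and overlaps Nsun2 on the opposite strand without shared exonic bases. On its own strand, 476 exonic bases of Srd5a1 are shared with the uncharacterized Gm17108. Values were 10.1, 9.79 and 7.61 CPM in nonobese isotype, 9.15, 9.49 and 10.97 in nonobese anti–PD-1, 9.13, 10.6 and 9.45 in obese isotype tumors and 11.5, 12.7 and 9.49 in those given anti–PD-1. The 2 highest tumors were obese anti–PD-1, and the remaining tumor of that group lay among the others. In obese mice anti–PD-1 gave a log2 fold change of 0.21 (SE 0.17, FDR 0.823 from edgeR).

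Srd5a3, a relative that reduces polyprenol to dolichol for protein glycosylation, was the least variable member. It lies on chromosome 5, from 76140273 to 76155503. Values were 25.9, 26.6 and 29.5 CPM in nonobese isotype, 25.8, 25.1 and 25.5 in nonobese anti–PD-1, 26.9, 30.9 and 31.6 in obese isotype tumors and 25.9, 26.6 and 29.2 in those given anti–PD-1. Its SD of log2 CPM over the 12 tumors was 0.11, larger than that of only 7.90% of the genes tested. Srd5a2, the main form of the prostate, had 0 counts in all tumors.

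All nonobese anti–PD-1 tumors lay below all nonobese isotype tumors for Srd5a3, as for 11.2% of all genes tested, but by a log2 fold change of only -0.10 (SE 0.11, FDR 0.936 from edgeR). They also lay below all obese anti–PD-1 tumors, as for 13.6% of all genes, by 0.10 (SE 0.11, FDR 0.841 from edgeR). No other member separated the groups in the 4 pairwise comparisons, where 12.4% of genes did for anti–PD-1 in obese mice and 19.4% for obesity under isotype, nor the 6 obese from the 6 nonobese tumors (1.06%). With 3 tumors against 3, an exact two-sided permutation test cannot give a P below 0.1.

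The broadly expressed Hsd17b enzymes varied no more between tumors than the median gene, whose SD of log2 CPM was 0.216. Their SD was 0.139 for Hsd17b12, 0.160 for Hsd17b4, 0.208 for Hsd17b10 and 0.215 for Hsd17b11. Hsd17b12, which reduces keto intermediates in the elongation of long-chain fatty acids and can also reduce estrone, lies on chromosome 2, from 94032697 to 94157909. It was at 195, 153 and 159 CPM in nonobese isotype, 195, 182 and 175 in nonobese anti–PD-1, 179, 199 and 193 in obese isotype tumors and 199, 184 and 154 in those given anti–PD-1. The highest tumor was 1.30-fold the lowest, and the highest tumor of each group lay between 195 and 199 CPM. Its log2 fold change for obesity under isotype was 0.17 (SE 0.12, FDR 0.549 from edgeR).

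Hsd17b11, an enzyme of lipid droplets that oxidizes an androgen metabolite, lies on chromosome 5, from 103989765 to 104021796. It was at 115, 91.3 and 104 CPM in nonobese isotype and 129.7, 106 and 104 CPM in nonobese anti–PD-1 tumors. In obese mice it was at 115, 149 and 123 CPM with isotype and 146, 135 and 108 CPM with anti–PD-1. Each obese group had a higher mean than each nonobese group, and the ranges overlapped in all comparisons.

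Under isotype, Hsd17b11 was 1.24-fold higher in obese than in nonobese mice (log2 0.32, SE 0.14, 95% interval 0.01 to 0.63, FDR 0.375 from edgeR). Averaged over treatments the difference was 1.19-fold (log2 0.25, SE 0.10, 95% interval 0.04 to 0.47, FDR 0.405 from edgeR). Under anti–PD-1 the log2 difference was 0.19 (SE 0.14, FDR 0.719 from edgeR). The P under isotype was below 0.05 in 9 of 20 other settings. It was not without obese isotype replicate 2, where the log2 difference was 0.19, or without nonobese isotype replicate 2, where it was 0.22 (FDR 0.770 and 0.762 from edgeR).

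Tumors differed in the balance of genes with high and low GC content, and Hsd17b11 moved with it. This GC tilt, the median log2 deviation of the 10% of genes with the highest GC content minus that of the 10% with the lowest, ranged from -0.35 in obese isotype replicate 3 to 0.25 in nonobese isotype replicate 2. Over the 12 tumors, which share their libraries with both measures, log2 CPM of Hsd17b11 correlated with it at r = -0.56 and rho = -0.55, and the GC content of Hsd17b11, 45.1%, was higher than that of 25.3% of genes. With the tilt as a covariate, chosen after seeing the data, the difference between diets was 0.20 under isotype (FDR 0.995 from edgeR) and 0.19 on average (FDR 0.850 from edgeR), and neither had a P below 0.05. The tilt was computed from the same counts. It was 0.03, 0.25 and 0.23 in nonobese and 0.17, -0.30 and -0.35 in obese isotype tumors, so this fit cannot tell tilt from diet. The covariate also lowered the number of all genes past both thresholds for obesity under isotype, from 179 to 71. Hsd17b12 and Hsd17b4 also followed the tilt, at r = -0.59 and -0.64, while Hsd17b1 did not, at r = -0.07. Srd5a1 and Srd5a3 were at r = -0.42 and -0.43 (rho -0.50 and -0.10), and Hsd17b10 at r = 0.09. The members did not follow the tilt in the order of their own GC content. Hsd11b1 had the lowest, 43.3%, with r = -0.13, and Hsd17b4, with the strongest r, was at 49.1%, above 46.0% of genes.

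**Figure D4:**
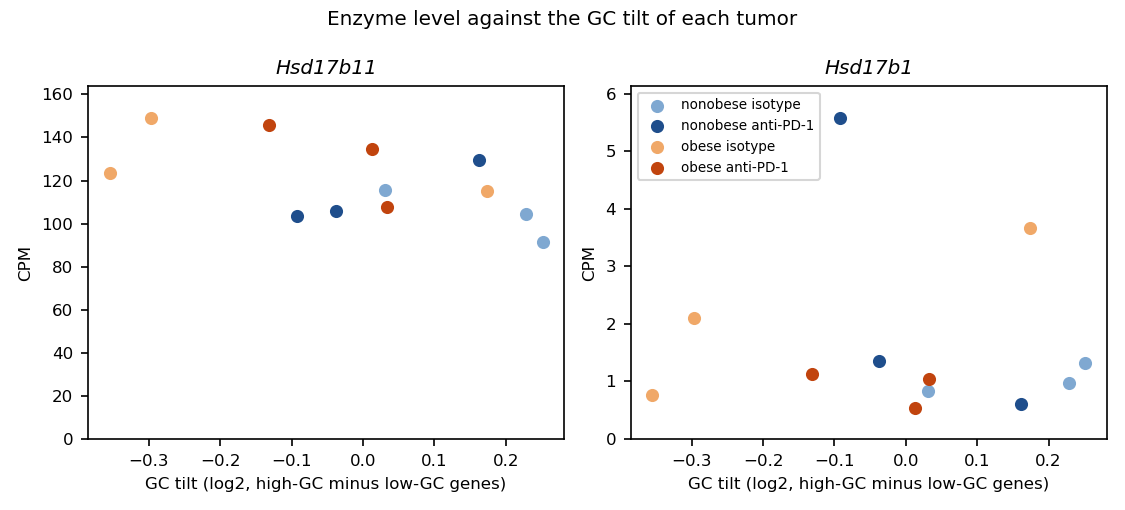
CPM of Hsd17b11 and Hsd17b1 in each tumor against the GC tilt of that tumor, in log2, with groups by color. Hsd17b11 was highest, at 149 CPM, in a tumor of negative tilt and lowest, at 91.3 CPM, in the tumor of highest tilt, and Hsd17b1 showed no such order.

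Hsd17b4, a peroxisomal enzyme that breaks down very long-chain fatty acids and can oxidize estradiol, lies on chromosome 18. It was at 75.8, 61.5 and 64.9 CPM in nonobese isotype, 76.8, 69.8 and 61.4 in nonobese anti–PD-1, 63.4, 78.9 and 82.5 in obese isotype tumors and 81.8, 74.5 and 65.1 in those given anti–PD-1. The lowest tumor of each group lay between 61.4 and 65.1 CPM and the highest between 75.8 and 82.5 CPM. Hsd17b4, Hsd17b11 and Hsd17b12 varied together over the 12 tumors, with Pearson r of 0.84 for Hsd17b4 and Hsd17b12, 0.83 for Hsd17b4 and Hsd17b11 and 0.81 for Hsd17b11 and Hsd17b12, values that share the libraries and their GC tilt.

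Hsd17b10, a mitochondrial enzyme of isoleucine breakdown and a subunit of mitochondrial RNase P, lies on chromosome X, from 152001896 to 152004442. It was at 38.8, 38.3 and 35.1 CPM in nonobese isotype, 43.2, 34.0 and 26.2 in nonobese anti–PD-1, 30.3, 41.9 and 32.2 in obese isotype tumors and 38.6, 40.3 and 35.5 in those given anti–PD-1. The lowest value, 26.2 CPM, was in nonobese anti–PD-1 replicate 3, the tumor with the highest Hsd17b1. The 2 genes had a Pearson r of -0.70 and a Spearman rho of -0.52 over the 12 tumors. The difference between the responses of Hsd17b10 was 0.25 on the log2 scale (SE 0.24, FDR 0.672 from edgeR).

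For the 6 abundant members, Srd5a1, Srd5a3, Hsd17b4, Hsd17b10, Hsd17b11 and Hsd17b12, the intervals limit how large a change could have been. In nonobese mice their log2 responses to anti–PD-1 lay between -0.12 and 0.12, where the outermost 95% bounds were 0.719-fold and 1.38-fold. In obese mice they ran from -0.13 to 0.21, with outermost bounds of 0.779-fold and 1.49-fold. For obesity, they ran from -0.11 to 0.32 under isotype (bounds 0.724-fold and 1.54-fold) and from -0.04 to 0.19 under anti–PD-1 (0.814-fold and 1.46-fold). The differences between the responses ran from -0.21 to 0.25, and no bound in these comparisons reached a 2-fold change.

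The genes with the most similar profile over the 12 tumors were, by Pearson r of log2 CPM, Psmb3 for Hsd17b10 and Tax1bp1 for Hsd17b4, both at 0.97. For Hsd17b12 this was Mtmr2 at 0.95, for Hsd17b11 Tcp11l2 at 0.94, for Srd5a1 Pms2 and for Srd5a3 Adi1, both at 0.91. Next came Actr2 and Rab2a for Hsd17b4, Ndufs3 and Aimp1 for Hsd17b10, Lta4h and Glod4 for Hsd17b11, Serinc1 and Fbxw11 for Hsd17b12, Prcp and Fgf7 for Srd5a1 and Ak7 and Rap1a for Srd5a3. The closest profile to Hsd11b1 was Dnajc12 at 0.79, then Pacsin1 and Zfp184, the lowest values for any of the 8 members. These are descriptions over 12 points that share library depth and composition.

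Other steroid genes were counted from a list of 39, of which 37 had a row, 15 passed the filter and 10 had no count in any tumor; Hsd17b8 and Sts were not analysed here. The steps between pregnenolone and androgens were below detection, as all 8 of the other synthesis enzymes stayed under 3 counts in every tumor, with Hsd3b1 at 0 and Cyp17a1 at 1 count in all. Hsd17b3, which makes testosterone in the testis, had 2 counts in total, Hsd17b2, which inactivates estradiol, had 5, and Sult1e1, the estrogen sulfotransferase, had 6. All 3 genes of cholesterol delivery and all 5 of electron and cofactor supply were tested, as were 3 of 13 other converting enzymes and 4 of 8 genes of conjugation and breakdown.

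Supporting genes with high levels per length serve many pathways. Cyb5a, an electron donor, was at 79.4 ± 13.9 CPM per kilobase (SD, n = 12), and Tspo, a cholesterol-binding protein of the outer mitochondrial membrane, at 64.0 ± 9.75. Por and Fdxr, the reductases that feed microsomal and mitochondrial P450 enzymes, were at 26.5 ± 2.50 and 13.3 ± 1.34 CPM per kilobase. Star had between 4 and 31 counts per tumor.

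In obese against nonobese mice under isotype, 0 of these 15 genes passed both thresholds in edgeR (1.37% of all genes) and 1, Cyp1b1, in DESeq2, while 4 had a P below 0.05 in edgeR (13.3% of all genes). Cyb5a was higher by 0.44 on the log2 scale, and Fdxr, H6pd and Hsd17b7, a cholesterol synthesis enzyme that can also reduce estrone, were lower, with log2 values of -0.24, -0.37 and -0.31 (FDR between 0.283 and 0.376 from edgeR for the 4 genes). Averaged over treatments, 0 passed both in edgeR (0.512% of all genes) and 0 in DESeq2, and 4 had a P below 0.05 (10.4% of all genes). Cyb5a (0.24) was higher, and Fdxr (-0.21), Hsd17b7 (-0.23) and Star (-0.97) were lower, with FDR values between 0.351 and 0.467 from edgeR.

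The genes that passed both thresholds, 2 of 15 in each comparison of anti–PD-1 with isotype (2.42% of all genes in nonobese and 2.44% in obese mice), were Cyp1b1, which hydroxylates estradiol for breakdown, and Sult1a1, a sulfotransferase for phenols and estrogens. Cyp1b1 had 29, 169 and 59 counts in nonobese isotype tumors (0.931, 4.97 and 3.35 CPM) and 18, 45 and 28 in nonobese anti–PD-1 tumors (0.915, 1.39 and 1.25 CPM). It had 24, 16 and 41 counts in obese isotype tumors (1.01, 1.12 and 1.96 CPM) and 22, 124 and 118 in obese anti–PD-1 tumors (1.55, 6.10 and 5.38 CPM). In both diets 1 tumor of the higher group lay within the range of the lower one.

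The log2 fold change of Cyp1b1 with anti–PD-1 was -1.37 in nonobese mice (FDR 0.912 from edgeR) and 1.68 in obese mice (FDR 0.478 from edgeR). The difference of the responses was 3.04 (SE 0.82, FDR 0.150 from edgeR). The P in nonobese mice was below 0.05 in 14 of 20 other settings. It was not without nonobese isotype replicate 2, where the log2 value was -0.81, without nonobese isotype replicate 3 (-1.31), or without nonobese anti–PD-1 replicate 1 (-1.22), 2 (-1.50) or 3 (-1.42). In obese mice it was not without obese anti–PD-1 replicate 2, where the log2 value was 1.37, and with the GC tilt as a covariate both diets lost it (-1.22 and 1.54). That covariate also lowered the number of all genes past both thresholds, from 317 to 132 in nonobese and 320 to 232 in obese mice.

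Sult1a1 came close to the floor, with 9, 25 and 15 counts in nonobese isotype, 3, 9 and 3 in nonobese anti–PD-1, 7, 4 and 5 in obese isotype tumors and 16, 12 and 27 in those given anti–PD-1. In CPM, the nonobese anti–PD-1 tumors lay below all nonobese isotype tumors and the obese anti–PD-1 tumors above all obese isotype tumors. Groups separated in either direction for 11.2% of all genes tested in nonobese and 12.4% in obese mice. In nonobese mice the nearest tumors, with 9 counts each, were at 0.278 CPM (anti–PD-1 replicate 2) and 0.289 CPM (isotype replicate 1). The log2 fold change with anti–PD-1 was -1.63 in nonobese (FDR 0.833 from edgeR) and 1.83 in obese mice (FDR 0.340 from edgeR), with a difference of 3.46 (SE 0.78, FDR 0.121 from edgeR). Under anti–PD-1, where 4.25% of all genes passed, both genes were higher in obese than in nonobese tumors, Cyp1b1 by 1.87 (FDR 0.227 from edgeR) and Sult1a1 by 2.30 on the log2 scale (FDR 0.108 from edgeR).

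The tumors also differed in markers of host cells that surround or enter a melanoma. As given above, the sum of 6 adipocyte markers did not overlap between isotype and anti–PD-1 tumors in either diet, and it was lower with anti–PD-1 in nonobese mice and higher with it in obese mice, as were Cyp1b1 and Sult1a1. Among all single genes tested, 11.2% separated these groups in either direction in nonobese and 12.4% in obese mice. Taken alone, Plin1, Lep and Cfd of this list overlapped between the groups in nonobese mice. The sum of 7 fibroblast markers was 582 to 2764 CPM in nonobese isotype, 262 to 529 in nonobese anti–PD-1, 196 to 1073 in obese isotype and 415 to 1832 in obese anti–PD-1 tumors. The sum of 5 macrophage markers was 128 to 276, 87.8 to 109, 84.1 to 174 and 130.4 to 290.4 CPM in the same order, and that of 4 T cell markers 1.16 to 2.53, 0.407 to 1.38, 1.01 to 1.33 and 2.40 to 8.26 CPM. The sum of 4 skeletal muscle markers was 8.25 to 283, 4.57 to 272, 7.40 to 97.2 and 22.1 to 434 CPM. No gene of these 5 lists was at 0 in all tumors, and the part of these cells in the values of Cyp1b1 and Sult1a1 was not tested.

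**Figure D5:**
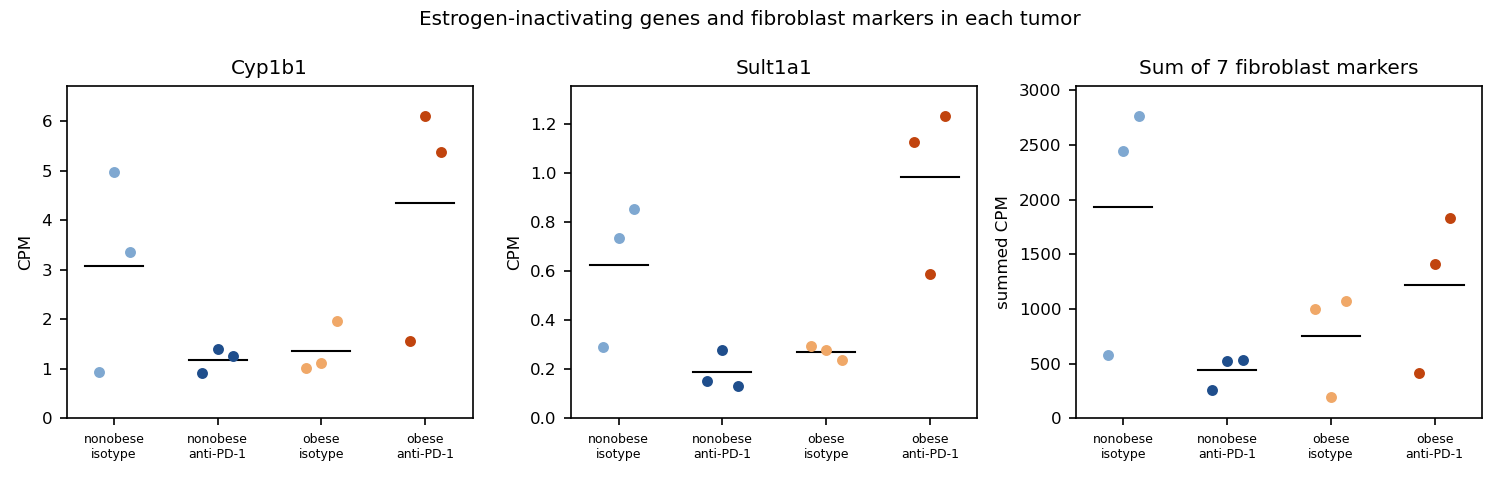
CPM of Cyp1b1 and Sult1a1 and the summed CPM of 7 fibroblast markers in each tumor by group, with bars at the means of 3 tumors. All panels were lower in nonobese anti–PD-1 tumors on average than in nonobese isotype tumors, and higher in obese anti–PD-1 than in obese isotype tumors.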

How the data were processed

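RNA of 12 tumors was measured with the TruSeq Stranded mRNA kit and single-end reads of 100 bp. Per the paper's methods and the submitters' processing notes, which name FastQC 0.11.5, STAR 2.7.0f, HTSeq 0.9.1 and edgeR 3.28.1, the authors aligned reads to mm10 and deposited raw counts per gene symbol, whole numbers without normalization. The annotation version and strand setting are not given in the sources used here. Every count column matched a tumor's label, and 0 columns were left unused. Members and gene lists were chosen with earlier results of these data known.

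Here, filterByExpr kept 13095 of 17519 genes with a count, TMM factors were applied, and edgeR 4.0.16 (R 4.3.3) fitted 4 group means with quasi-likelihood F-tests (glmQLFit, legacy form, 8 residual degrees of freedom) and Benjamini-Hochberg adjustment. The step was tested on simulated data. Standard errors were derived from the F statistic. Log2 CPM used a prior count of 2. Exon lengths came from GENCODE M21 on GRCm38 (12340 of the genes tested matched) and coordinates and promoters from RefSeq GRCm38.p6 (8 of 10 members have a promoter entry). Members were named with all values; of the other steroid genes, those past both thresholds, the 5 with the highest level per length and those of the route to estradiol or corticosterone were named, except 1 item that is not reported here, and those with P below 0.05 were added after their values were seen. The alternatives were DESeq2 1.42.0, RLE scaling, other filters, the current glmQLFit, a replicate block, only the 6 tumors compared, leaving out each tumor and, added after seeing the data, the GC tilt.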

Additional observations from a re-analysis of the deposited data

Results flagged for a closer look

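The response to anti–PD-1 differed between diets for 3 steroid genes, 1 of 8 members and 2 of 15 other genes tested, by the interaction test of edgeR at an unadjusted P below 0.05 and a fold change above 2, which 5.76% of all genes passed. On the log2 scale, obese minus nonobese, it was -2.53 for Hsd17b1, 3.04 for Cyp1b1 and 3.46 for Sult1a1, and none had an FDR below 0.05 from edgeR. In addition, 1 tumor stood apart from the other 5 of its diet for 2 members: Hsd17b1 at 5.57 CPM in nonobese anti–PD-1 replicate 3, and Srd5a3 at 29.5 CPM in nonobese isotype replicate 3. This check looked at 16 sets of 6 tumors, and chance marks about 1 in 20.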

How the results depend on the processing

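The number of members past both thresholds stayed at 0 for obesity under isotype and for the diet average in all alternatives run. For anti–PD-1 in nonobese mice it was 0 and ranged from 0 to 1 when single tumors were left out, with 1 without nonobese anti–PD-1 replicate 1. In obese mice it ranged from 0 to 1, with 1 without nonobese anti–PD-1 replicate 3 or obese isotype replicate 3. For obesity under anti–PD-1 it was 0, but 1 with DESeq2 and 1 with no filter on low counts, and ranged from 0 to 1 when tumors were left out, with 1 without nonobese anti–PD-1 replicate 1 or 2 or obese isotype replicate 3. For the difference of the responses it was 1 and ranged from 0 to 1, with 0 without nonobese anti–PD-1 replicate 3, obese isotype replicate 1 or obese anti–PD-1 replicate 2. The gene was Hsd17b1 each time. Its fitted response in nonobese mice ranged from -0.0753 to 1.72 and its diet average from -0.54 to 0.45, where -0.0753 and 0.45 came without nonobese anti–PD-1 replicate 3. The FDR of its difference of responses lay between 0.186 and 0.675 over 19 alternatives. By DESeq2 the FDR of that difference was 0.0160 for Cyp1b1 and 0.0321 for Sult1a1.

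Groups share replicate numbers, but the tumors are of different mice: 6 of 12 tumors correlated best with a tumor of their own number, and the mean r was 0.133 over 18 pairs of the same number and -0.0623 over 36 pairs of different numbers. With the replicate block, the difference for Hsd17b1 was -2.45 (FDR 0.369 from edgeR) and no call of a member changed. All 20 alternatives kept the largest log2 fold change among the 6 abundant members in the 4 pairwise comparisons between 0.22 and 0.40, while the difference of the responses of Hsd17b10 ranged from 0.13 to 0.46 over 19 alternatives. Longest transcripts in place of exon unions moved the level of Srd5a3 to 12.4 and of Hsd11b1 to 0.672 CPM per kilobase. At 3 counts per tumor as the floor, levels under 0.212 CPM in the smallest libraries cannot be told from 0.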
